A study of Homo sapiens with 6 samples.

Results

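Caveolae are small flask-shaped pits of the plasma membrane, and 8 genes that encode their main components were followed here among the 58884 genes of the table. They were listed by name: the caveolins CAV1, CAV2 and CAV3, the cavins CAVIN1, CAVIN2 and CAVIN3, the neck protein EHD2 and the membrane-bending protein PACSIN2. Earlier results of these data were known when the genes were chosen. Each of the 8 had 1 row, and 6 passed the filter on low values, which kept genes whose normalized counts averaged 10 or more. The lines compared were KYSE70, derived from a human esophageal squamous cell carcinoma and carrying a mutant NFE2L2, and NRF2null-KYSE70, expanded from 1 clone in which CRISPR-Cas9 had disrupted NFE2L2, the gene of the transcription factor NRF2. Both lines were untreated and grown in the same medium, and each had 3 libraries. Because NRF2null-KYSE70 is 1 clone, its libraries carry no spread between clones, and the disruption of NFE2L2 and other differences of that clone cannot be told apart. The study saw a faint, smaller NRF2 band in this clone and lists incomplete removal of NRF2 among its limits. The labels do not say whether the 3 libraries of a line came from separate cultures, so the p-values measure only the spread between these libraries.

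The wall of a caveola is built from caveolin oligomers that insert into a cholesterol-rich membrane. Cavins form a second coat on the cytoplasmic side, and CAVIN1 is needed for caveolae to form in most cells. EHD2 rings the neck and holds the pit at the surface, whereas PACSIN2 bends the membrane there. Caveolae flatten when the membrane is stretched and are abundant in endothelium, adipocytes, muscle and the basal cells of stratified epithelia.

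The libraries held 52072801 to 63975313 reads. In the targeted gene NFE2L2 the normalized count (read count divided by the size factor of the library) was 9839, 9906 and 10040 in KYSE70, against 5803, 6041 and 6434 in NRF2null-KYSE70. NFE2L2 was thus lower in every library of the clone. Cutting of a coding exon need not remove the mRNA, so this level is no measure of NRF2 protein. All 8 squamous epithelial markers were detected in both lines, with a summed normalized count of 325955 to 338924 in KYSE70 and 250844 to 268910 in NRF2null-KYSE70. At an adjusted p under 0.05 by limma 4 of these rose and 4 fell, where 57.6% of all tested genes passed in either direction. KRT6A, KRT17, CDH1 and DSP rose by 0.69, 0.66, 0.60 and 0.26 on the log2 scale. KRT5, TP63, PERP and DSC3 fell by 0.75, 0.92, 0.47 and 0.33. KRT5 was the largest part of the sum, at a mean of 209917 in KYSE70 and 124640 in NRF2null-KYSE70.

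The promoters of CAV1, CAV2 and CAVIN2, the 3 members with the largest fold changes below, are shown because these genes differed most between the lines. Each is the 250 bases before the gene's first listed RefSeq start on GRCh38.p14, read on the gene's own strand. CAV1 spans chr7:116524759-116525008 on the plus strand, CAV2 chr7:116499488-116499737 on the plus strand and CAVIN2 chr2:191847089-191847338 on the minus strand. Capitals mark a GC box (GGGCGG, on either strand) in CAV1 and CAV2 and a TEAD site (GGAATG, on either strand) in CAVIN2.
CAV1: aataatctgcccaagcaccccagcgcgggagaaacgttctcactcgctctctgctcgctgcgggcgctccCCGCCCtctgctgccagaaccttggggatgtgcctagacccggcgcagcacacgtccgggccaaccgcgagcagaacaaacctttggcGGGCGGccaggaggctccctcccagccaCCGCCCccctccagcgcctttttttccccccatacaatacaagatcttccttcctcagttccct
CAV2: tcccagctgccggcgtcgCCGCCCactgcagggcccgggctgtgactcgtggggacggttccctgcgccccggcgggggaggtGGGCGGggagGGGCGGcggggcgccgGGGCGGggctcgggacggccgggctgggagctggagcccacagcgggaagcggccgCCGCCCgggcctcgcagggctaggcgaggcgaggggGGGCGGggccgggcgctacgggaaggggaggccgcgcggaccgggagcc
CAVIN2: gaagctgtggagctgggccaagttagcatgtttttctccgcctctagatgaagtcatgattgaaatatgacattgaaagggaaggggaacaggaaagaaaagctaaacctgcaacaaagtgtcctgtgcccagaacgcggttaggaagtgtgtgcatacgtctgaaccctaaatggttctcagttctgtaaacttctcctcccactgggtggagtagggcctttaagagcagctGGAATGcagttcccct
RefSeq promoters were found for 6 of the 8 members, all but CAVIN1 and CAVIN3. GC boxes stood in 3 of the 6, with 3 in CAV1, 6 in CAV2 and 1 in EHD2, and in 42.3% of all 27305 promoters of this length. The TEAD site stood in CAVIN2, 16 to 11 bases before the start, and in PACSIN2, 49 to 44 bases before the start, beside 11.9% of all promoters. PACSIN2 has 6 listed starts and CAV1 has 3, and the other windows were not searched. The PACSIN2 window, chr22:42959900-42960149, lies inside the gene, which begins at 43015149 on the minus strand in GENCODE. Its TEAD site is thus before the first listed start and not before the outermost one. The core of the antioxidant response element bound by NRF2 (TGACNNNGC, on either strand) was in 0 of the 6 windows and in 11.0% of all promoters. The AP-1 site (TGANTCA, on either strand) was likewise in 0 of the 6 and in 6.60% of all promoters. These counts describe letters in these windows only. The CAV2 window was 83.2% G or C and the CAV1 window 63.6%, whereas CAVIN2 was at 48% and the median promoter at 58%.

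Of the 6 tested caveolae genes, 5 were higher in NRF2null-KYSE70 at an adjusted p under 0.05 and 0 were lower (limma with a trend, on log2 of the normalized count plus 1, two-sided, Benjamini-Hochberg adjustment over all 15994 tested genes). Differences were common in this comparison: 57.6% of the tested genes passed the same threshold, 29.3% higher and 28.3% lower. Values of the 2 lines were fully separate for 5 of the 6 members and for 63.4% of all tested genes. Only CAV1 among the members also reached an absolute log2 fold change of 1, which 14.7% of the tested genes did in either direction and 7.23% did upward. The median log2 fold change of the 6 members was 0.67, and that of all tested genes was -0.007. In RNA from whole cultures, more cells with a transcript and more of it per cell cannot be told apart.

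**Figure D1:**
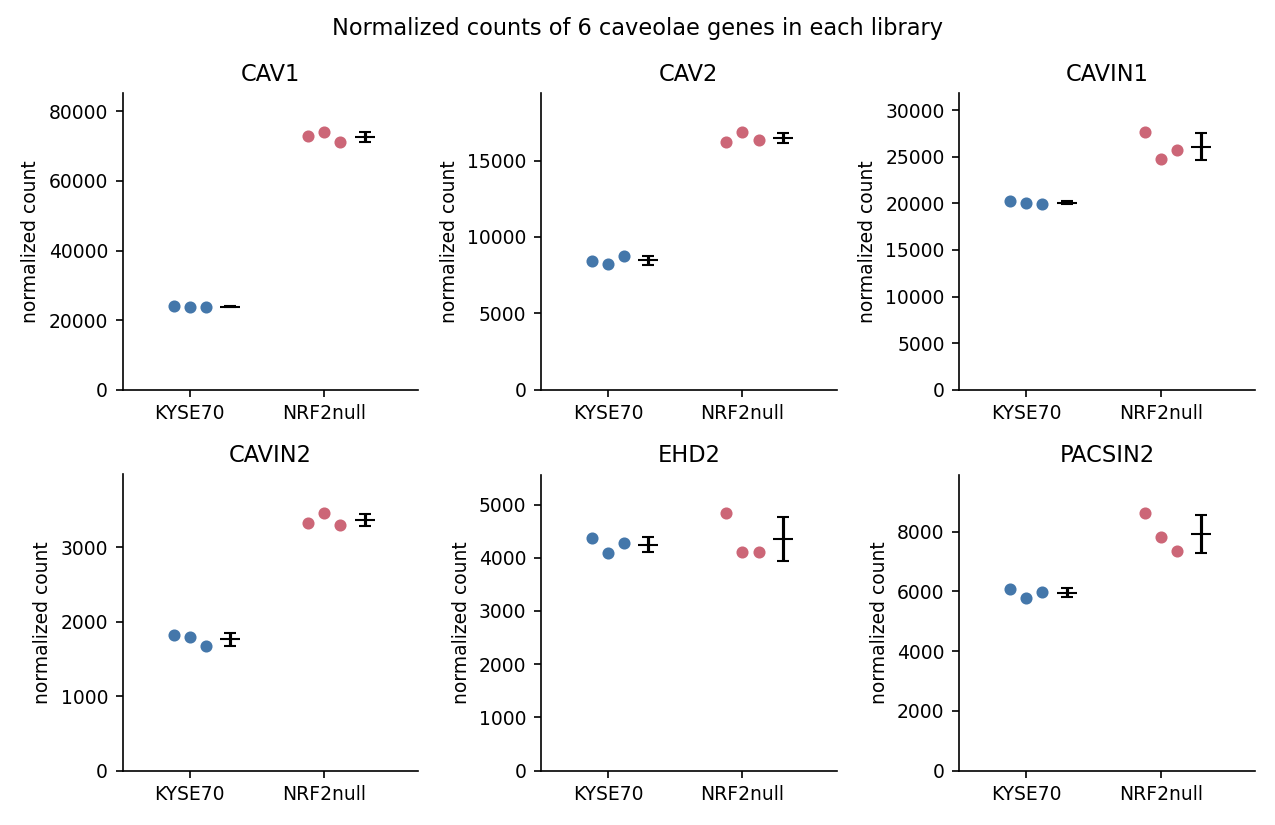
Normalized counts (y axis, linear from 0) of the 6 tested caveolae genes in the 3 KYSE70 libraries (blue points) and the 3 NRF2null-KYSE70 libraries (red points), with the mean and SD in black. All points of NRF2null-KYSE70 lie above those of KYSE70 for CAV1, CAV2, CAVIN1, CAVIN2 and PACSIN2, and the points of EHD2 overlap.

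CAV1, the caveolin that shapes the pit outside striated muscle (chr7:116524994-116561179, plus strand, hg38), had normalized counts of 24118, 23866 and 23721 in KYSE70, against 72864, 74043 and 71172 in NRF2null-KYSE70. The 3 libraries of each line lay close together and far from those of the other line. The log2 fold change was 1.60 (SE 0.043, adjusted p 1.71e-11 by limma), a 3.04-fold rise, and 3.92% of all tested genes had a log2 fold change at least as large. CAV2, which forms hetero-oligomers with CAV1 and starts 25.3 kb before it on the same strand (RefSeq starts), had 8419, 8211 and 8778 normalized counts in KYSE70, against 16237, 16866 and 16352 in NRF2null-KYSE70. Its lines did not overlap either, and its log2 fold change was 0.96 (SE 0.045, adjusted p 2.56e-09 by limma), a 1.95-fold rise. CAV3, the caveolin of skeletal and cardiac muscle (chr3:8733802-8841808), was counted with 1, 0 and 0 reads in KYSE70, against 0, 4 and 0 in NRF2null-KYSE70. It was not tested, and no fold change is given at this depth.

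CAVIN1, the cavin required for the coat (chr17:42402449-42423256, minus strand), had 20293, 19992 and 19969 normalized counts in KYSE70, against 27653, 24819 and 25712 in NRF2null-KYSE70. The lines did not overlap, with a log2 fold change of 0.37 (95% interval 0.27 to 0.48, adjusted p 2.64e-05 by limma) or 1.30-fold. This rise was 0.23 on the log2 scale after quantile normalization and 0.50 after subtraction of the median of the 20 nearest tested genes, and it passed the threshold in both. CAVIN2, which joins CAVIN1 in the coat and bends membrane (chr2:191834310-191847088, minus strand), had 1827, 1789 and 1669 normalized counts in KYSE70, against 3327, 3456 and 3303 in NRF2null-KYSE70. Its rise was larger than that of CAVIN1 in log2 units, at 0.93 (SE 0.058, adjusted p 3.07e-08 by limma) or 1.91-fold. The antisense CAVIN2-AS1 shares 7.79% of the exonic bases of CAVIN2 and had at most 1.05 normalized counts in any library.

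CAVIN3, the third cavin of non-muscle cells (chr11:6318946-6320532, minus strand), had 0 reads in all 6 libraries. A count of 0 allows up to 3 reads, which is 2.67 to 3.42 normalized counts per library and covers counting error only. In GENCODE v44 an antisense RNA, ENSG00000282556, shares 36.7% of the exonic bases of CAVIN3, and it too was listed at 0 in all 6 libraries. Whether the authors' counting used strand, and whether it dropped reads that fall on both genes, is not given in the sources used here. The 0 is therefore a statement about this table and not about the CAVIN3 transcript.

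EHD2, the ATPase at the caveolar neck (chr19:47713422-47743134, plus strand), had 4379, 4088 and 4279 normalized counts in KYSE70, against 4838, 4117 and 4101 in NRF2null-KYSE70. The values of both lines overlapped, and the log2 fold change of 0.03 did not pass the threshold (95% interval -0.11 to 0.18, adjusted p 0.717 by limma). The sign of this difference turned under 3 alternatives, and without NRF2null-KYSE70 library 1 it was -0.048. PACSIN2 (chr22:42835412-43015149, minus strand) had 6084, 5790 and 5985 normalized counts in KYSE70, against 8615, 7809 and 7362 in NRF2null-KYSE70. It rose without overlap between the lines by a log2 fold change of 0.41 (95% interval 0.28 to 0.54, adjusted p 5.79e-05 by limma) or 1.33-fold. The same-strand gene ARFGAP3 shares 3.40% of the exonic bases of PACSIN2 and had itself a log2 fold change of 0.71. NRF2null-KYSE70 library 1 held the highest value of its line for CAVIN1, EHD2 and PACSIN2, and without it the log2 fold changes of CAVIN1 and PACSIN2 were 0.33 and 0.35.

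The members were next compared with one another, per kb of the canonical GENCODE transcript, since a longer mRNA yields more reads. In KYSE70 the level per kb was 9732 ± 81.8 for CAV1, 5626 ± 50.6 for CAVIN1, 2868 ± 97.1 for CAV2, 1831 ± 46.0 for PACSIN2, 1212 ± 42.2 for EHD2 and 577 ± 26.9 for CAVIN2 (SD, n = 3). In NRF2null-KYSE70 it was 29598 ± 588 for CAV1, 7300 ± 406 for CAVIN1, 5582 ± 113 for CAV2, 2439 ± 195 for PACSIN2, 1241 ± 120 for EHD2 and 1101 ± 26.9 for CAVIN2 (SD, n = 3). The order was the same in both lines, and neighbours in it did not overlap. The closest pair was EHD2 and CAVIN2 in NRF2null-KYSE70, at 1170 to 1380 and 1081 to 1132 normalized counts per kb. Among 19869 protein-coding genes ranked by level per kb, CAV1 stood at 364 to 384 in the KYSE70 libraries and at 116 to 129 in the NRF2null-KYSE70 libraries. CAVIN1 moved from 690 to 730 in KYSE70 to 481 to 571 in NRF2null-KYSE70.

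The ratio of CAV1 to CAVIN1 per kb, taken within a library and so free of its scaling, was 1.73, 1.74 and 1.73 in KYSE70, against 3.83, 4.34 and 4.02 in NRF2null-KYSE70. It was higher in every library of the clone, by 1.23 on the log2 scale. The ratio of CAV1 to CAV2 was 3.44, 3.49 and 3.25 in KYSE70, against 5.40, 5.28 and 5.23 in NRF2null-KYSE70, a log2 difference of 0.64. Both differences gave an exact permutation p of 0.1 (two-sided), the smallest that 3 against 3 libraries allow, so this test cannot pass 0.05. Another 3 ratios, chosen after their values were seen, had the same exact p of 0.1, and adjustment over the 5 left it at 0.1. Of these, CAVIN2 to CAVIN1 went from 0.103 ± 0.0042 to 0.151 ± 0.011, CAV1 to PACSIN2 from 5.32 ± 0.12 to 12.2 ± 0.86 and CAV1 to EHD2 from 8.04 ± 0.26 to 24.0 ± 2.20 (SD, n = 3). In shares, CAV1 made up 77.2% ± 0.68 of the summed caveolin level per kb in KYSE70 and 84.1% ± 0.21 in NRF2null-KYSE70. CAVIN1 made up 90.7% ± 0.34 (KYSE70) and 86.9% ± 0.84 (NRF2null-KYSE70) of the summed cavin level (SD, n = 3 for all shares). CAVIN3 entered the cavin sum as 0 in every library, so the CAVIN1 share is one of CAVIN1 plus CAVIN2 only. The mRNAs of the coat thus did not rise in equal proportion in these libraries. Ratios between genes also depend on the transcript length used, which is the same in both lines.

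**Figure D2:**
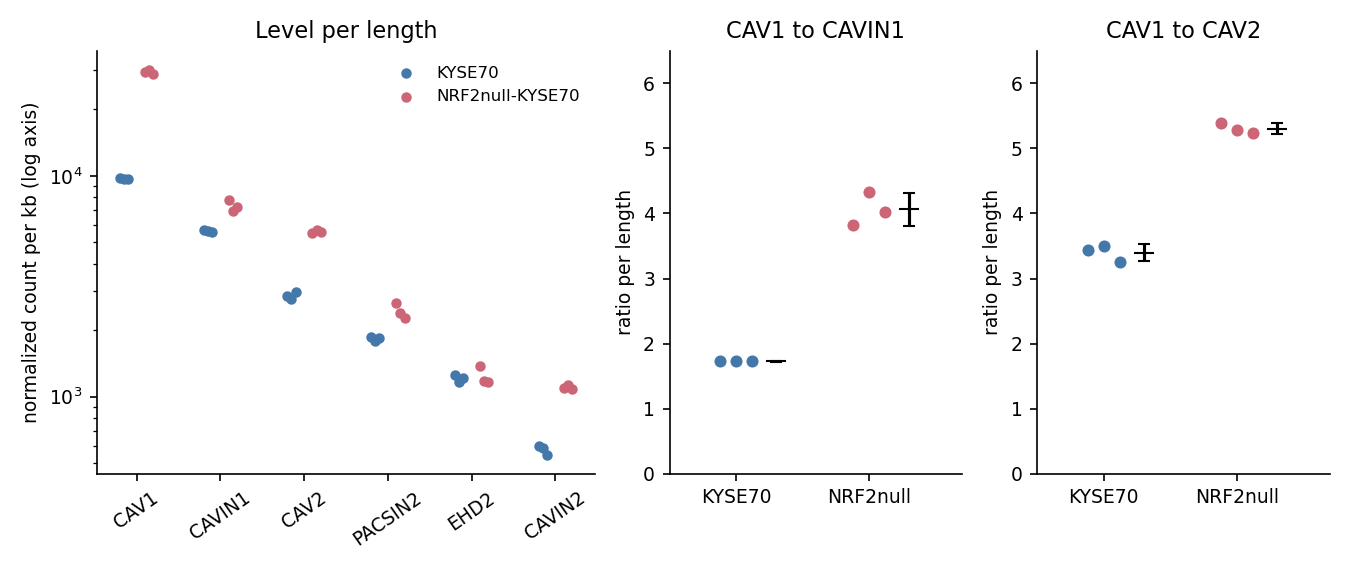
Left, level per kb of the 6 tested caveolae genes in each library (normalized count per kb, log axis, KYSE70 blue and NRF2null-KYSE70 red); middle and right, the ratios of CAV1 to CAVIN1 and of CAV1 to CAV2 per length in each library with mean and SD in black, on a linear axis from 0. CAV1 is the highest of the 6 in both lines, and its ratio to CAVIN1 goes from 1.73 in KYSE70 to 3.83 or more in NRF2null-KYSE70.

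The relatives of the members were a list of 6 genes, of which 5 were tested, 3 rose and 0 fell, with a median log2 fold change of 0.58. The background for this and the later lists is that 29.3% of all tested genes were higher and 28.3% lower. EHD4, an EHD family ATPase of endosomes and the cell surface, had 4572, 4517 and 4271 normalized counts in KYSE70, against 14685, 13812 and 12500.5 in NRF2null-KYSE70. Its log2 fold change of 1.61 (SE 0.060, adjusted p 2.94e-10 by limma) was as large as that of CAV1, whereas EHD2 in the same family was at 0.03. After subtraction of the median of 20 neighbouring genes, EHD4 was at 1.24 and CAV1 at 1.59. EHD1, which acts in endocytic recycling, rose from 2822 ± 147 to 4209 ± 223 normalized counts (SD, n = 3), a log2 fold change of 0.58. PACSIN1, best known from neurons, rose from 593 ± 50.0 to 1115 ± 145 (SD, n = 3), a log2 fold change of 0.90. PACSIN3 had a log2 fold change of -0.10 (adjusted p 0.168 by limma) and CAVIN4, the muscle cavin, one of -0.05 (adjusted p 0.891 by limma) at a mean of 85.7 normalized counts in KYSE70. EHD3 was not tested, at 0 to 8.11 normalized counts.

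Among 10 partners at the caveolar neck and in endocytosis, 3 rose and 3 fell, with a median log2 fold change of 0.04. ROR1, a receptor-like kinase reported as a scaffold that holds cavin and caveolin together, had 234, 176 and 164 normalized counts in KYSE70, against 995, 775 and 783 in NRF2null-KYSE70. Its log2 fold change of 2.15 (SE 0.15, adjusted p 8.27e-08 by limma) was the largest of this list. DNM2, the dynamin that cuts pits from the membrane, rose by 0.18 on the log2 scale (adjusted p 0.00599 by limma), and the call was lost under quantile and total scaling (adjusted p 0.184 and 0.0785). FNBP1, an F-BAR protein, rose by 0.23 (adjusted p 0.0101 by limma), a call lost under total scaling and without the trend (adjusted p 0.0548 and 0.0528). DNM1 fell by 0.82, and the kinases SRC and ABL1, which act on caveolin-1, fell by 0.30 and 0.34 on the log2 scale. The call for DNM1 was lost (adjusted p 0.0743) and the sign for SRC turned (0.21) after subtraction of the median of 20 neighbouring genes. FLNA, the filamin that ties caveolae to actin, had a log2 fold change of 0.22 that did not pass (adjusted p 0.0631 by limma).

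Of 8 proteins found in caveolae or lipid rafts, 6 were tested, 2 rose and 2 fell, with a median log2 fold change of -0.11. INSR, the insulin receptor, rose by 0.48 (adjusted p 0.0012 by limma). NOS3, the nitric oxide synthase of endothelium, had a mean of 6.83 normalized counts in KYSE70, against 23.7 in NRF2null-KYSE70. Its log2 fold change at these low counts was 2.29 (adjusted p 0.0324 by limma). NOS3 passed the filter on low values only through NRF2null-KYSE70, so its place among the 2 that rose is no support for a rise. STOM, the raft protein stomatin, fell by 0.73 from 4835 ± 179 to 2909 ± 124 normalized counts (SD, n = 3). SCARB1, a lipoprotein receptor, fell by 0.44 on the log2 scale (adjusted p 5.01e-05 by limma), a call that was lost after the neighbour correction (-0.11, adjusted p 0.147). The flotillins, which build a raft domain distinct from caveolae, had log2 fold changes of -0.09 for FLOT1 and -0.13 for FLOT2, neither past the threshold (adjusted p 0.118 and 0.0582 by limma). CD36 and PLVAP were listed at 0 in all 6 libraries.

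**Figure D3:**
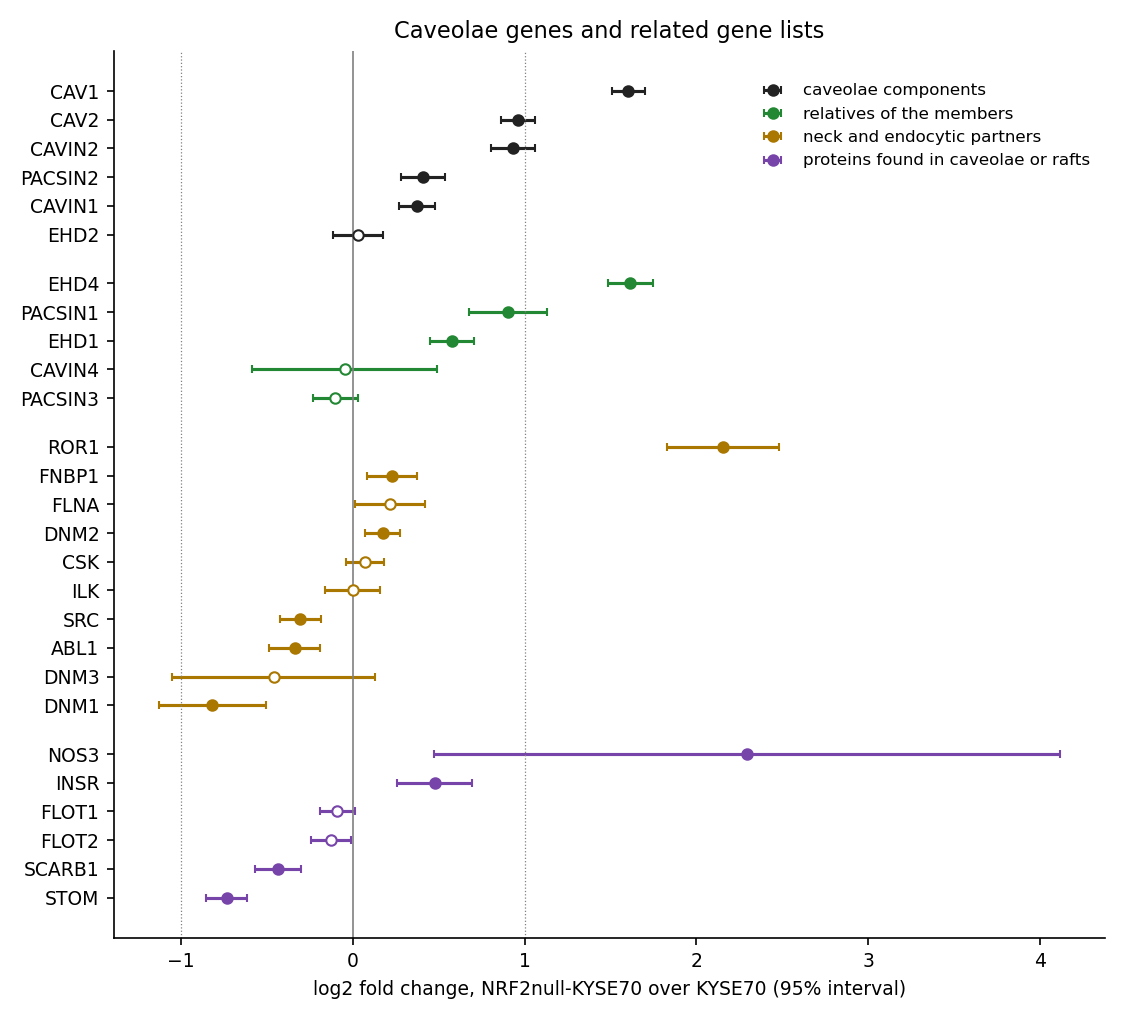
Log2 fold change, NRF2null-KYSE70 over KYSE70, with its 95% interval (x axis) for the tested caveolae genes (black), their relatives (green), partners (brown) and proteins of caveolae or rafts (purple). Filled points passed an adjusted p of 0.05, open points did not, and dotted lines mark a log2 fold change of 1 in either direction; CAV1 and EHD4 lie at 1.60 and 1.61.

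The clathrin coat, which builds a different endocytic pit, served as a comparison. All 12 genes of the list were tested, 6 rose and 2 fell, 0 reached an absolute log2 fold change of 1, and the median was 0.11. The adaptor genes EPS15, AP2A2, EPN2 and PICALM rose by 0.54, 0.48, 0.34 and 0.32, and AP2S1 fell by 0.26. CLTC, the clathrin heavy chain, rose by 0.15 (adjusted p 0.0332 by limma), a call that held under only 8 of 18 alternatives. TMM and total scaling were among those that removed it, and the sign turned under quantile normalization (-0.013). No test of the members against this list was made. Of 10 genes that supply cholesterol and sphingomyelin, the lipids of the caveolar membrane, 5 rose and 0 fell, with a median log2 fold change of 0.18. Among them, SREBF2, NPC2 and SQLE rose by 0.47, 0.45 and 0.27, and the call for SQLE was lost after the neighbour correction (adjusted p 0.351).

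CAV1 and CAV2 lie in a stretch of chromosome 7 in which 12 genes within 3000 kb of CAV1 (itself included) were tested, 5 of them higher and 2 lower. CAV1 and CAV2 are among these 5, and over all tested genes 29.3% were higher and 28.3% lower. MET, the hepatocyte growth factor receptor, lies 147 kb beyond CAV1 and rose from 7777 to 24240 normalized counts on average, a log2 fold change of 1.64 (adjusted p 4.47e-10 by limma). On the other side TES, a focal adhesion gene, lies 314.5 kb before CAV1 and rose by 0.81 (adjusted p 4.12e-08 by limma). CAPZA2, which encodes an actin capping subunit and lies 338 kb beyond CAV1, rose by 0.30 (adjusted p 0.0016 by limma). The 4 protein-coding genes TES, CAV2, CAV1 and MET, which follow each other in the tested set with 2 low non-coding genes between TES and CAV2, all rose by 0.81 or more. This run and its bound were picked after the values were seen, and whether the genes changed as a block was not tested. ST7, 428 kb beyond CAV1, had a log2 fold change of 0.01 (adjusted p 0.918 by limma). MDFIC, 1603 kb before CAV1, fell by 0.28, and CTTNBP2, 1186 kb beyond it, was at 26.5 normalized counts on average in KYSE70, against 0.654 in NRF2null-KYSE70. CTTNBP2 passed the filter on low values only through KYSE70. The 10 neighbours of CAV1, the 5 tested genes on each side with CAV2 among them, had a median of 0.42, with 4 higher and 2 lower. Over the wider set of the 20 tested genes nearest to CAV1, the median was 0.01.

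**Figure D4:**
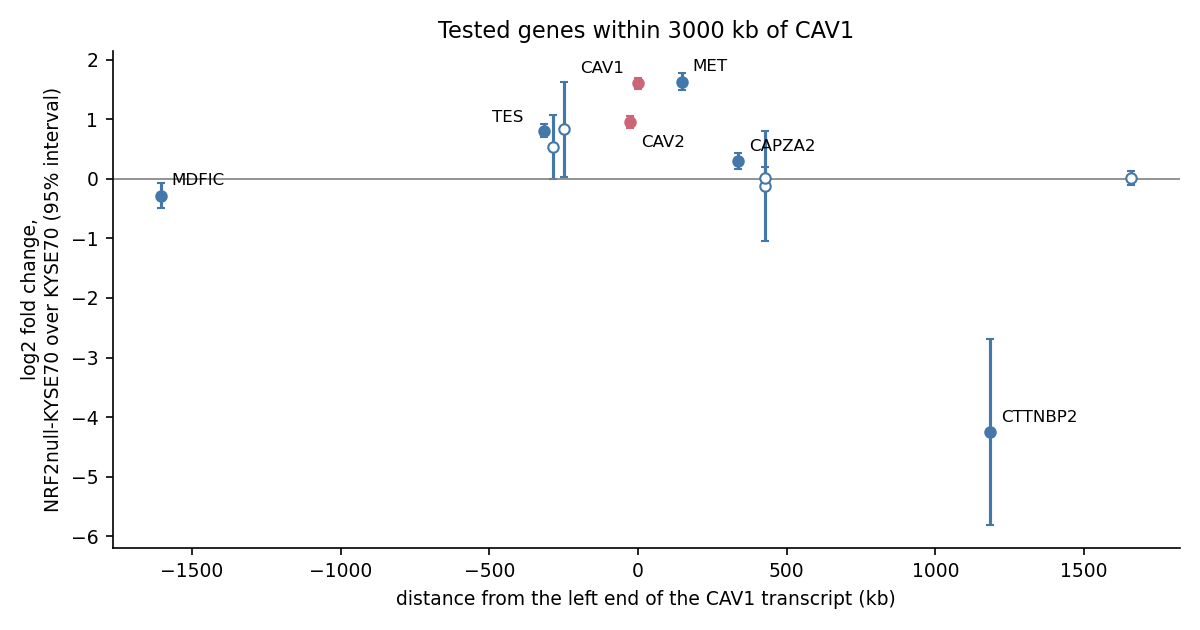
Log2 fold change, NRF2null-KYSE70 over KYSE70, with its 95% interval (y axis) of the 12 tested genes within 3000 kb of CAV1 against the distance of their left end from that of CAV1 (x axis, kb). CAV1 and CAV2 are red, other genes blue; filled points passed an adjusted p of 0.05 and are named, and MET at 1.64 and CAV1 at 1.60 are the highest.

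Caveolae are rich in fibroblasts, endothelium, muscle and fat, so markers of these cell types were read in the same libraries. Of 8 fibroblast markers, 3 were tested and 2 fell. THY1 rose by 0.15 (adjusted p 0.0464 by limma), a call lost under 10 of 18 alternatives. The summed normalized count was 3851 to 3973 in KYSE70 and 3039 to 3454 in NRF2null-KYSE70, most of it THY1. COL1A2 and DCN were at 0 reads throughout, COL1A1 fell by 1.16 on the log2 scale and COL3A1 fell by 4.79. PDGFRB was below the filter and not tested. It was at 0 in every KYSE70 library, against 12.17, 14.71 and 15.98 normalized counts in NRF2null-KYSE70. Of 6 endothelial markers, VWF and TEK were tested and both rose, by 1.28 and 2.22 on the log2 scale. VWF went from 142 to 353 normalized counts on average and TEK from 7.13 to 32.3. TEK passed the filter on low values only through NRF2null-KYSE70. The summed count of the list was 138 to 159 in KYSE70 and 293 to 499 in NRF2null-KYSE70. The endothelial markers PECAM1, CDH5 and CLDN5 had at most 1 read in any library, and KDR had 0. The muscle and adipocyte markers held 100 and 33 reads in all 6 libraries together.

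The 5 genes whose levels over the 6 libraries were most like those of CAV1, among 11996 genes with a mean of at least 100 normalized counts, were CARS, LACTB, GADD45A, AMOTL2 and PLD1. Likeness was the root mean square difference of centred log2 values, which was 0.038 for CARS, 0.046 for LACTB and GADD45A and 0.049 for AMOTL2 and PLD1. CARS, a cysteinyl-tRNA synthetase, had 2856 ± 22.8 normalized counts in KYSE70, against 8303 ± 12.2 in NRF2null-KYSE70 (SD, n = 3). AMOTL2, an angiomotin of cell junctions, had 5344 ± 197 and 16845 ± 786 (SD, n = 3). With 2 lines, likeness to CAV1 amounts to a similar fold change and small spread, and none of the 5 lies on chromosome 7.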

How the data were processed

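RNA of KYSE70 (3 libraries) and NRF2null-KYSE70 (3 libraries) was sequenced. Per the labels and the study's methods, the authors trimmed reads (FastQC 0.11.5, cutadapt 1.12), aligned them with STAR 2.6.90c to hg38 with a RefSeq annotation, counted them per gene with featureCounts 1.5.1 and normalized with DESeq2. Strand and multi-mapped read settings are not given in the sources used here. The deposited values are a signal in normalized counts, that is, each gene's reads over the size factor of its library. Whole reads were recovered for 100% of values within 0.01 of a whole number, at 0.889 to 1.14 normalized counts a read. Columns carry the line's name without a replicate number, so libraries are numbered by their order in the table. Pairs of libraries within a line differed by more than sampling noise (chi-square per degree of freedom 4.59 to 23.4). The highest values, 23.4 and 23.0, were both from pairs with NRF2null-KYSE70 library 1. The next highest was 12.5, between KYSE70 libraries 1 and 3.

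The 15994 genes with a mean of at least 10 were tested with limma 3.58.1 (R 4.3.3) on log2(normalized count + 1), which understates the change of low genes, with line as the only term. At thresholds of 0.05 on the adjusted p and 1 on the size of the log2 fold change, limma called 2344 genes, and on recovered reads edgeR 4.0.16 called 2350 and DESeq2 1.42.0 called 2647. The script was tested on simulated data. Gene positions came from GENCODE v44 (58472 of 58884 identifiers matched) and promoters from RefSeq. Named genes were the members, NFE2L2, the gene lists and cell type markers, the 5 tested genes on each side of each member and the 5 genes most like CAV1. The members and lists were chosen with earlier results of these data known. Alternatives covered the pseudocount, filter, scaling, model, count tests, each library left out and a correction for neighbouring genes. Some genes of the lists are counted but not reported here by name.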

Additional observations from a re-analysis of the deposited data

How the results depend on the processing

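The counts of 5 caveolae genes past an adjusted p of 0.05 and of 1 past the fold threshold as well were the same under all 18 alternatives. Over these, the log2 fold change ran from 1.51 to 1.62 for CAV1, 0.84 to 0.99 for CAV2, 0.23 to 0.50 for CAVIN1, 0.86 to 0.96 for CAVIN2 and 0.32 to 0.60 for PACSIN2. With 1 library left out, the log2 difference of the CAV1 to CAVIN1 ratio was 1.18 to 1.27 and that of CAV1 to CAV2 was 0.61 to 0.66. The count over all genes was 1511 with a filter at a mean of 50, where fewer genes were tested, 2858 without a filter and 2226 to 2337 with 1 library left out. EHD2 reversed with quantile normalization (-0.019), total scaling (-0.045) and without NRF2null-KYSE70 library 1 (-0.048), and its range with 1 library left out was -0.048 to 0.071. CAVIN4 reversed with quantile normalization (0.059), without KYSE70 library 3 (0.058) and without NRF2null-KYSE70 library 1 (0.17), with a range of -0.19 to 0.17. CLTC reversed with quantile normalization (-0.013), SRC with the neighbour correction (0.21), and ST7 with TMM (-0.00049), total scaling (-0.063), without KYSE70 library 1 (-0.033) and without NRF2null-KYSE70 library 3 (-0.051), with a range of -0.051 to 0.068. The cause of these was not tested. Total scaling moved the median of all genes by -0.075. PACSIN3, FLNA, FLOT1 and FLOT2 passed the threshold under some alternatives, and THY1 lost it under 10 of 18. No paired analysis was possible because the columns carry no replicate numbers. Genes at a few reads, CAV3 and CAVIN3 among them, could not be compared at this depth.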

Other observations

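Around the other members, the 5 tested genes on each side varied. The 10 neighbours of CAVIN2 included 5 higher and 2 lower genes, their median log2 fold change was 0.26, and they ranged from -2.19 to 1.79. Those of CAVIN1 had a median of -0.14, with 1 higher and 4 lower, and the highest of them was at 0.20, below the 0.37 of CAVIN1. Those of PACSIN2 had a median of 0.18, with 5 higher and 2 lower, and those of EHD2 one of -0.01, with 3 higher and 3 lower. The 10 neighbours of CAVIN3, which had 0 reads, were all tested, with 3 higher and 0 lower. Those of CAV3 had a median of -0.35, with 2 higher and 6 lower. Some of the neighbours counted here passed the filter on low values only through the line in which they were higher.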
